A study of Mus musculus with 3 samples.

Results

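The retinoid metabolism and signalling genes described here were 9 genes of the 33696 features counted, taken by their symbols: *Aldh1a1*, *Aldh1a2* and *Aldh1a3* (retinal dehydrogenases), *Aldh1a7* (a paralog of *Aldh1a1*), *Cyp26b1* and *Cyp26a1* (retinoic acid hydroxylases), *Rarb* and *Rarg* (retinoic acid receptors) and *Crabp2* (a binding protein for retinoic acid in the cytoplasm). Their levels were followed across the epithelial and stromal cells of the mouse larynx. Cells came from Lrig1CreERT2/+; ROSA26 CAG-LSL-tdTomato/+ mice on a C57BL/6J background, in which tamoxifen given on consecutive days allows the Cre recombinase, expressed from the *Lrig1* locus, to switch on tdTomato. Larynges were collected 24 h after recombination, and tdTomato+ cells were sorted with gates set on wild-type mice and on ROSA26 CAG-LSL-tdTomato/+ mice without Cre. Each of the 3 libraries pooled 10 larynges, 5 from males and 5 from females, so that the library was the replicate (n = 3) and all libraries shared genotype, treatment and time. Neither an untreated group nor an unsorted one was compared. The sort kept cells in which Cre driven by *Lrig1* had acted, and the age of the mice was not given in the sources used here.

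Retinoic acid, the active form of vitamin A, is made in the cytoplasm from retinol by way of retinal. Retinol and alcohol dehydrogenases carry out the reversible step to retinal, and the ALDH1A enzymes the irreversible step to retinoic acid. CYP26 enzymes then oxidize retinoic acid and so limit where it acts. In the nucleus it binds RARs, which sit with RXRs on direct repeats of a short DNA motif, and *Rarb*, *Cyp26a1* and *Dhrs3* are textbook targets of this complex. In airway and other lining epithelia, vitamin A is known for favouring mucous and ciliated over squamous differentiation.

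The motif letters of such repeats were searched in the 1000 bases before every annotated transcript start of 21603 protein-coding genes (168427 starts), since the members include known targets. A repeat was 2 of the hexamers AGGTCA or AGTTCA or GGGTCA or GGTTCA in the same orientation, 5, 2 or 1 bases apart, on either strand. With 5 bases between them, such repeats were found for 3 of the 9 members, *Cyp26a1*, *Rarb* and *Rarg*, and for 0.907% of all genes. Since *Rarb* and *Cyp26a1* were known beforehand as targets, the share among members is a description and not a test. The members differ in their number of annotated starts (18 for *Aldh1a1*, 16 for *Rarb*, 12 for *Rarg* and 5 or fewer for the others), and more starts give more windows. The sequences below are from GRCm39, 5′ to 3′, with the hexamers in capitals.
Cyp26a1, chr19:37686218-37686240, forward strand: taaagaTGAACTttgggTGAACT
Rarb, chr14:5894228-5894256, forward strand: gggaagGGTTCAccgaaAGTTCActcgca
Rarg, chr15:102159246-102159274, reverse strand: ggtcagGGTTCAaagtgAGGTCAcggtat
The *Cyp26a1* repeat lies 17 to 1 bases before the canonical transcript start and reads on the strand opposite to the gene, hence the letters TGAACT. The *Rarb* repeat ends 29 bases before a start at position 5894279, which is not the start of the canonical transcript. The *Rarg* repeat lies 487 to 471 bases before a start at position 102158781, again not the canonical one, and its GGTTCA is shared with a second, overlapping repeat that has 1 base between the hexamers. Repeats with 1 base between the hexamers were found for 2.004% of genes, and those with 2 bases for 2.389% and for 0 of the members. For *Aldh1a1*, *Aldh1a2*, *Aldh1a3*, *Aldh1a7*, *Cyp26b1* and *Crabp2* none of these letters were in the windows searched. A match describes letters only, and binding was not measured here.

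After quality limits and doublet removal, 44542 cells remained: 13222, 7201 and 24119 in libraries 1, 2 and 3, with a median of 10382, 13938 and 9979 unique molecular identifiers (UMIs, each counting 1 captured RNA molecule) per cell and 109221214 to 285036031 UMIs per library. A cell was placed in a class by UMIs of fixed marker genes, and 36484 cells carried the markers of exactly 1 lineage. Basal cells, which hold keratin markers of the lowest layer, were split by *Nkx2-1*, a transcription factor of the airway epithelium, and *Tmprss11a*, a protease of squamous epithelium, into airway basal, squamous basal, and basal with both or with neither. For this split, 1 UMI of a gene was enough. Genes that were in no gate marked the classes as their names say, with 1 exception. The UMI minimums of the gates had been raised once with a view to these genes and the gate genes, so that this is not an independent check. The summed level of *Col1a1*, *Col1a2*, *Col3a1* and *Dcn* was 13276 to 17702 counts per 1000000 UMIs (CPM) in all fibroblasts and 204 to 400 CPM in all epithelial cells. *Tg* and *Pax8* summed to 20204 and 25588 CPM in the thyroid follicular gate of libraries 1 and 2 but to 2.80 CPM in library 3, so that this class of 44, 26 and 30 cells goes against its name in library 3 and is not described further. It stays in the fit over all classes and in the measure of likeness, which are given without it as well. Cells called epithelial that met no epithelial gate ("other epithelial") were shallow, with medians of 6815, 9892 and 3932.5 UMIs. Orders of levels are over the 15 classes with at least 20 cells in every library. The neuroendocrine gate (46, 2 and 6 cells) and the mural and Schwann gates fell short, and neuroendocrine values are given where they bear on a statement about the epithelium. Between 0.15% and 0.86% of a library's barcodes also occurred in another library. A level below is the CPM of a gene in a class of 1 library. As the libraries count 3′ ends of RNA, levels are compared between classes and not between genes.

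*Aldh1a1* (chromosome 19, 20469539 to 20622825, forward strand), whose product oxidizes retinal and other aldehydes, was counted in all 15 classes, with ciliated cells far above the rest. Its level in ciliated cells was 2978, 2500 and 2307 CPM in libraries 1, 2 and 3. Gland acinar cells followed at 989, 500.3 and 438 CPM and secretory cells at 564, 378 and 412 CPM. The mean of ciliated cells was 4.04-fold that of gland acinar cells without overlap of the libraries, whereas gland acinar and secretory cells overlapped. Basal cells with neither marker came next at 272.5, 250.7 and 238 CPM, below every secretory value. Between them and squamous basal cells, at 136, 90.7 and 97.1 CPM, lay other epithelial, suprabasal squamous, airway basal and basal cells with both markers as well as both fibroblast classes, and each of these overlapped its neighbours. Muscle satellite cells had 56.8, 30.6 and 52.2 CPM, below squamous basal cells and above endothelial cells (9.86 to 18.3 CPM), which overlapped leukocytes (8.56 to 13.6 CPM).

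The share of cells with at least 1 *Aldh1a1* UMI did not keep this order throughout. It was 99.2% ± 0.249 (SD, n = 3) in ciliated cells, 90.2% ± 1.67 in secretory cells, 73.1% ± 5.42 in airway basal cells, 70.9% ± 9.15 in gland acinar cells, 62.7% ± 2.86 in basal cells with neither marker and 49.3% ± 2.46 in squamous basal cells. Gland acinar cells thus had a share below that of secretory cells in each library, at a level that was higher. In endothelial cells it was 10.1% ± 4.76 and in leukocytes 9.06% ± 3.47, at lower depth. To compare at equal depth, cells were thinned to 5000 UMIs, which left out shallower cells: 6179 of 7182, 4741 of 5023 and 16179 of 18368 epithelial cells of libraries 1, 2 and 3 were deep enough, and 1278 of 1677, 269 of 294 and 1194 of 1472 fibroblasts. The shares were 99.2% ± 0.374 in ciliated, 67.0% ± 2.96 in secretory, 58.5% ± 14.5 in gland acinar, 48.4% ± 4.82 in basal with neither marker, 47.1% ± 4.55 in airway basal, 28.2% ± 4.04 in squamous basal, 6.07% ± 2.03 in endothelial cells and 6.34% ± 2.20 in leukocytes. Nearly every ciliated cell therefore held *Aldh1a1* RNA at either depth. In libraries 2 and 3 the thinned endothelial shares rest on 23 and 18 cells and the thinned leukocyte shares on 23 and 23.

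*Aldh1a7* (chromosome 19, 20667107 to 20704932, reverse strand), a rodent paralog beside *Aldh1a1* for which activity on retinal is not established, was highest, among the 15 classes, in gland acinar and secretory cells. Gland acinar cells had 84.0, 60.9 and 59.4 CPM and secretory cells 65.1, 61.1 and 61.8 CPM in libraries 1, 2 and 3, and these classes overlapped. The neuroendocrine gate lay above both at 175, 275 and 74.2 CPM, from 189 UMIs in 28 of 46 cells of library 1 but only 2 and 6 cells in libraries 2 and 3. Airway basal cells followed at 38.7, 23.2 and 46.1 CPM, below all secretory values and overlapping other epithelial cells and basal cells with both markers. Ciliated cells, the class richest in *Aldh1a1*, had only 25.1, 30.6 and 26.0 CPM. Squamous basal cells had 3.40, 3.18 and 6.41 CPM, all below suprabasal squamous cells at 7.80, 7.40 and 9.17 CPM. In all fibroblasts the gene stood at 1.08, 0.934 and 1.31 CPM. A UMI was counted in 46.7% ± 2.55 (SD, n = 3) of secretory cells, 5.82% ± 1.45 of squamous basal cells and 1.07% ± 0.140 of fibroblasts, and after thinning to 5000 UMIs in 22.4% ± 0.895, 2.45% ± 1.67 and 0.708% ± 0.0710. The canonical transcripts of *Aldh1a1* and *Aldh1a7* share 17 identical windows of 90 bases but 0 of the 411 windows in their last 500 bases, where 3′ libraries are read. No other pair among the canonical transcripts of the 4 Aldh1a genes shares any, and their other transcripts were not compared.

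**Figure D1:**
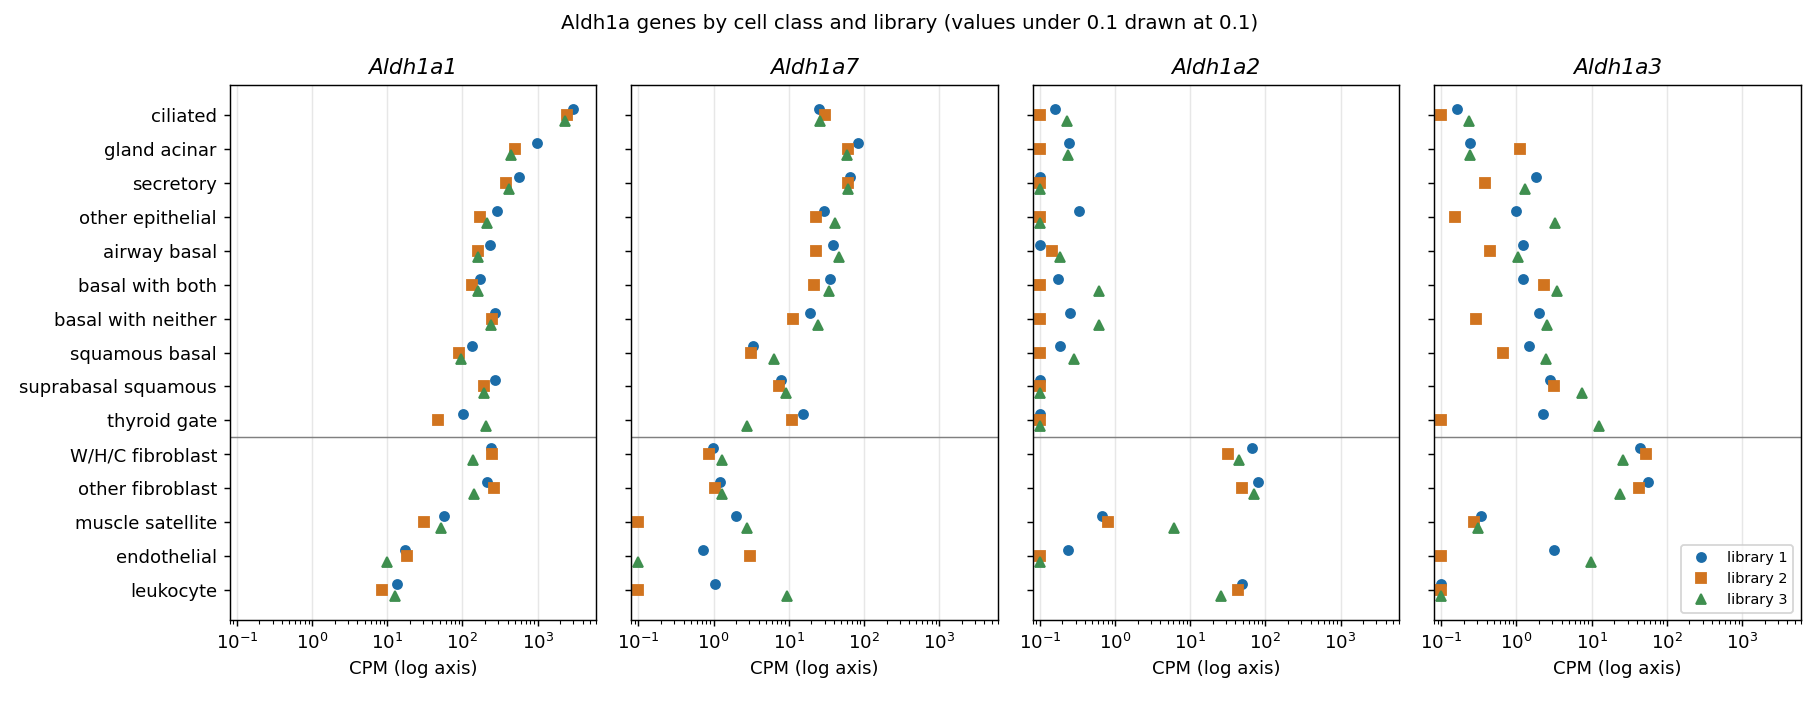
Level of the 4 Aldh1a genes (CPM, log axis) in 15 cell classes, each point 1 library; values under 0.1 are drawn at 0.1, W/H/C stands for *Wnt16/Hhip/Col23a1*, and the line parts epithelial from other classes. *Aldh1a1* reaches 2307 to 2978 CPM in ciliated cells, *Aldh1a7* is highest in gland acinar and secretory cells, and *Aldh1a2* and *Aldh1a3* have their highest means in the fibroblast classes.

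*Aldh1a2* (chromosome 9, 71122630 to 71203527, forward strand), the main enzyme of retinoic acid synthesis in embryonic mesoderm, was counted mainly in fibroblasts and leukocytes. All fibroblasts had 71.8, 37.4 and 51.7 CPM in libraries 1, 2 and 3. All epithelial cells had 0.186, 0.0110 and 0.290 CPM, from 92 UMIs over 30573 cells. Of the epithelial classes with 20 or more cells in every library, only basal cells with both or with neither marker exceeded 0.330 CPM, and suprabasal squamous cells had 0 UMIs in all libraries. The neuroendocrine gate of library 1 had 2.78 CPM, from 3 UMIs in 1 cell. Among fibroblasts, those with 2 or more UMIs of *Wnt16*, *Hhip* and *Col23a1* had 65.9, 32.2 and 44.0 CPM and the other fibroblasts 80.9, 49.7 and 71.6 CPM, which overlapped. Only a minority of fibroblasts held a UMI, 10.6% ± 1.38 (SD, n = 3) of the *Wnt16/Hhip/Col23a1* class and 19.8% ± 3.61 of the others, against 0.217% ± 0.183 of all epithelial cells. After thinning to 5000 UMIs these shares were 8.47% ± 1.50, 14.1% ± 3.68 and 0.152% ± 0.135. Leukocytes had 48.2, 42.8 and 25.7 CPM, overlapping fibroblasts, and muscle satellite cells 0.668, 0.813 and 6.14 CPM, the last from 20 UMIs in 3 of 660 cells. In library 1 the leukocyte UMIs came from 26 of 153 cells (17.0%, 95% Wilson interval 11.9 to 23.7), whereas in library 2 a single cell of 43 held all 15 UMIs (2.33%, 0.412 to 12.1) and in library 3 the 8 UMIs came from 3 of 42 cells (7.14%, 2.46 to 19.0). These intervals cover counting error only.

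*Aldh1a3* (chromosome 7, 66040638 to 66077850, reverse strand), a retinal dehydrogenase known from head epithelia, was also highest, among the 15 classes, in fibroblasts. The *Wnt16/Hhip/Col23a1* fibroblasts had 43.8, 52.1 and 26.3 CPM and the other fibroblasts 56.0, 42.3 and 23.8 CPM, with near identical means. All epithelial cells had 1.55, 0.860 and 2.61 CPM. Suprabasal squamous cells had 2.79, 3.17 and 7.33 CPM and ciliated cells 0.160, 0 and 0.231 CPM. The neuroendocrine gate of library 1 had more, 20.4 CPM from 22 UMIs in 14 of 46 cells, with 0 UMIs in the 2 cells of library 2 and 5 UMIs in 1 of the 6 cells of library 3 (33.7 CPM, above both fibroblast classes of that library). Leukocytes held 0 UMIs in all libraries, which at 3 counts still allows 1.57, 8.56 and 9.63 CPM. A UMI was counted in 15.7% ± 5.09 (SD, n = 3) of all fibroblasts and 1.79% ± 0.791 of all epithelial cells, and after thinning in 11.6% ± 3.46 and 0.673% ± 0.411.

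To ask which compartment holds the machinery, the summed UMIs of all fibroblasts and of all epithelial cells entered edgeR's quasi-likelihood test over all genes, where 59% of the 18547 genes tested passed (27.8% higher and 31.2% lower in fibroblasts). Of the 8 members tested, 2 were higher in fibroblasts, 2 were lower and 4 did not pass. *Aldh1a2* was higher by 8.16 on the log2 scale (standard error 0.644, adjusted p = 3.44e-05) and *Aldh1a3* by 4.55 (0.449, adjusted p = 1.04e-04). Without library 3 these were 9.07 and 5.35, and without library 1 or 2 they were 7.91 to 7.97 and 4.16 to 4.31. *Aldh1a7* was lower in fibroblasts, at -4.49 (0.247, adjusted p = 6.91e-06), and so was *Rarb*, at -0.94 (0.176, adjusted p = 0.00264). All 3 libraries showed each of these directions. *Aldh1a1* had -0.64 (0.308, adjusted p = 0.113), and with the library as a replicate block -0.61 (adjusted p = 0.0124, with 63.4% of all genes passing). The epithelial sum includes ciliated cells, at 2307 to 2978 CPM, and their part in this difference was not tested. Both fibroblast classes (means 210 and 207 CPM) lay above airway basal (185), basal with both (155) and squamous basal cells (108 CPM). They lay below the means of the other epithelial classes that are described. *Crabp2* had 1.20 (0.503, adjusted p = 0.0754), with 1.31, 0.74 and 1.76 without library 1, 2 and 3, of which the last passed (adjusted p = 0.0347). *Cyp26b1* had 0.08 (0.524) and *Rarg* -0.09 (0.151), both within their standard errors of 0. Secretory cell markers (*Scgb1a1* and *Bpifa1*) summed to 194 to 495 CPM in all fibroblasts, and their part in the fibroblast values was not tested.

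Within the epithelium, airway basal cells were set against squamous basal cells, where 19.5% of 15712 genes passed (9.97% higher, 9.5% lower). Basal cells with both markers (626, 527 and 3635 cells in libraries 1, 2 and 3) or with neither were on neither side. Of 7 members tested, 3 were higher in airway basal cells and none was lower. *Aldh1a7* was higher by 3.01 (0.320, adjusted p = 7.58e-04), *Aldh1a1* by 0.75 (0.214, adjusted p = 0.0456) and *Rarb* by 0.94 (0.198, adjusted p = 0.0150) on the log2 scale, each in 3 of 3 libraries. The *Aldh1a1* call was lost without library 2 (0.72, adjusted p = 0.156) or library 3 (0.79, adjusted p = 0.0572), and in 1 fit over all classes (0.74, adjusted p = 0.132, and 0.72, adjusted p = 0.0731, without the thyroid follicular class). The *Rarb* call was lost without library 1 (0.90, adjusted p = 0.191). Fibroblast markers (*Col1a1*, *Col1a2*, *Col3a1* and *Dcn*) summed to 540 to 858 CPM in airway basal and 96 to 218 CPM in squamous basal cells, and *Aldh1a2* was at or below 0.281 CPM in both. The part of fibroblast RNA in these differences was not tested.

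Secretory cells, which line the airway above its basal cells, were then compared with airway basal cells, where 6.9% of 14285 genes passed (4.21% higher, 2.69% lower). Of 6 members tested, 2 were higher and 1 was lower in secretory cells. *Aldh1a1* rose by 1.36 (0.212, adjusted p = 0.00881) and *Aldh1a7* by 0.86 (0.189, adjusted p = 0.0344), in 3 of 3 libraries each. The *Aldh1a1* call was lost without library 2 (1.40, adjusted p = 0.0736). That of *Aldh1a7* was lost without library 1 (0.88, adjusted p = 0.312) or library 2 (0.66, adjusted p = 0.0740), and in 1 fit over all classes (0.88, adjusted p = 0.0960, and 0.88, adjusted p = 0.0678, without the thyroid follicular class). Gland acinar markers that were in no gate summed to 1111 to 2620 CPM in secretory and 207 to 269 CPM in airway basal cells, and ciliated markers to 4.1 to 7.4 and 3.5 to 8.4 CPM. The part of either in the Aldh1a values was not tested.

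In the squamous epithelium, suprabasal cells were compared with squamous basal cells, where 3.89% of 15033 genes passed (2.58% higher, 1.31% lower). Of 7 members tested, only *Aldh1a1* passed, at 272, 194 and 196 against 136, 90.7 and 97.1 CPM. It rose by 1.07 (0.205, adjusted p = 0.0304), a call lost without library 1, 2 or 3 (1.09, 1.05 and 1.08, adjusted p = 0.0820, 0.0958 and 0.118) and in 1 fit over all classes (1.06, adjusted p = 0.0830), but kept in that fit without the thyroid follicular class (1.04, adjusted p = 0.0298). *Aldh1a3* had 1.60 (0.524, adjusted p = 0.162) and *Aldh1a7* 0.95 (0.283, adjusted p = 0.128). With the replicate block both passed, at 1.60 (adjusted p = 0.00161) and 0.93 (adjusted p = 0.00407), where 20.6% of all genes passed. The suprabasal class also held more secretory marker RNA, 5775 to 11286 against 1633 to 3248 CPM, and more gland marker RNA, 626 to 1384 against 175 to 289 CPM, and the part of these in its Aldh1a values was not tested.

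The degrading enzyme *Cyp26b1* (chromosome 6, 84548396 to 84570890, reverse strand) differed strongly between libraries. Other epithelial cells had 57.2, 89.9 and 6.11 CPM in libraries 1, 2 and 3, and airway basal cells 40.0, 45.6 and 11.4 CPM. Basal cells with neither marker had 21.7, 39.1 and 6.87 CPM and those with both 27.2, 20.9 and 8.28 CPM. The value of library 3 was the lowest in each of these 4 classes. Squamous basal cells had 7.76, 15.4 and 4.91 CPM and secretory cells 7.66, 8.42 and 4.34 CPM. In gland acinar and ciliated cells the RNA was near 0, with 7 and 4 UMIs over all libraries. Fibroblasts had 16.2, 32.2 and 13.8 CPM in the *Wnt16/Hhip/Col23a1* class and 26.6, 8.45 and 16.7 CPM in the others. Neighbouring classes overlapped from other epithelial cells down to secretory cells, which lay above muscle satellite cells (0.614 to 2.71 CPM).

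Airway basal cells exceeded squamous basal cells in each library, by 1.77 on the log2 scale (0.595, adjusted p = 0.0778), which did not pass. With the replicate block the difference was 1.68 (0.194, adjusted p = 2.90e-04) while 40% of all genes passed. It also passed without library 3 (1.87, adjusted p = 0.00674), without a filter on low counts (1.73, adjusted p = 0.0293) and with gate limits doubled (1.77, adjusted p = 0.0494). Secretory cells had less than airway basal cells in 3 of 3 libraries, by -2.21 (0.531, adjusted p = 0.0464). That call was lost without library 1 (-2.13, adjusted p = 0.382) or library 2 (-2.04, adjusted p = 0.223), without doublet removal (-2.02, adjusted p = 0.0757) and in 1 fit over all classes (-2.19, adjusted p = 0.0642, and -2.19, adjusted p = 0.0627, without the thyroid follicular class). Of airway basal cells 20.3% ± 10.4 (SD, n = 3) held a *Cyp26b1* UMI, of squamous basal cells 9.60% ± 5.05, of secretory cells 7.74% ± 2.60 and of ciliated cells 0.415% ± 0.401. After thinning to 5000 UMIs the shares were 10.1% ± 5.54, 4.23% ± 2.15, 2.87% ± 0.584 and 0.103% ± 0.179. Suprabasal and squamous basal cells differed by -0.13 (0.570), within the standard error.

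*Qrfp* and *Akr1c14* were taken because earlier results of these data had shown them in the same cells as *Cyp26b1*, so that the following levels are a description. Epithelial cells with a UMI of *Qrfp*, a neuropeptide gene, had 91.5, 93.6 and 13.1 CPM of *Cyp26b1* and those without 11.6, 20.3 and 5.82 CPM. Cells with a UMI of *Akr1c14*, a steroid and aldehyde reductase, had 51.6, 76.2 and 10.1 CPM and those without 9.42, 16.5 and 5.73 CPM. The share of *Qrfp*+ cells among epithelial cells was 10.57%, 11.93% and 1.81% and that of *Akr1c14*+ cells 24.3%, 21.54% and 4.92%, both lowest in library 3. Other epithelial cells made up 26.33%, 24.67% and 10.39% of epithelial cells. The part of these shares in the low *Cyp26b1* values of library 3 was not tested.

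**Figure D2:**
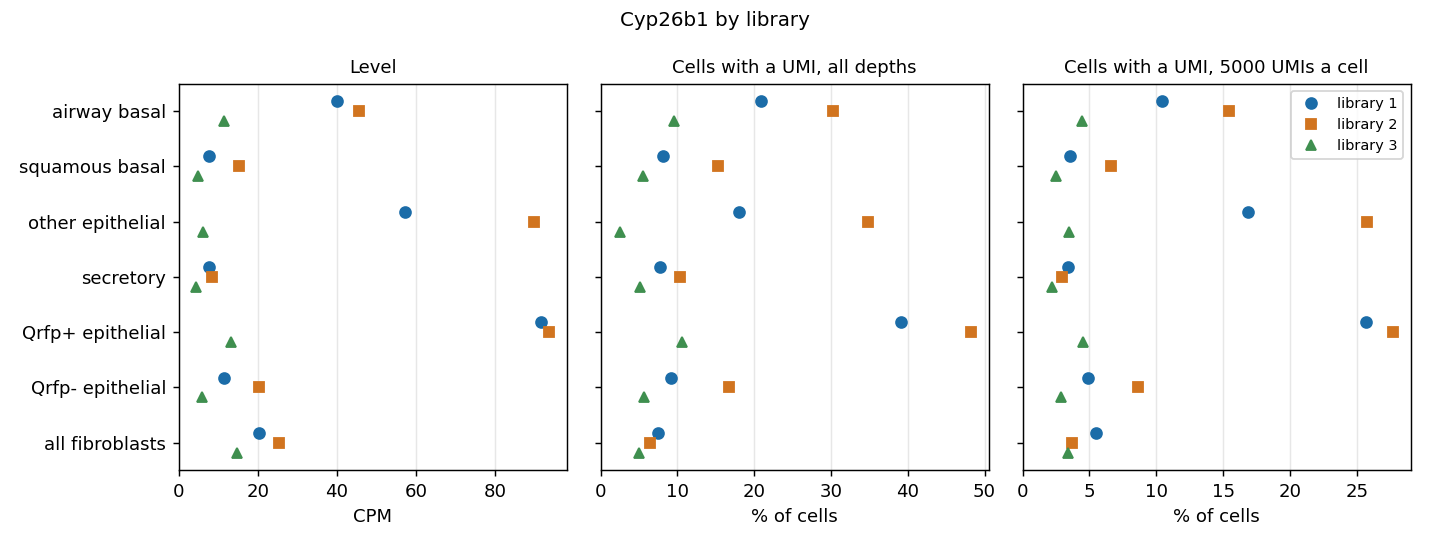
*Cyp26b1* level (CPM) and share of cells with a UMI, at all depths and at 5000 UMIs a cell, in libraries 1, 2 and 3. Each point is 1 epithelial class, *Qrfp* group or all fibroblasts of 1 library. In *Qrfp*+ cells the level was 91.5, 93.6 and 13.1 CPM, and in all epithelial cells (not drawn) 19.7, 28.3 and 5.95 CPM, lowest in library 3.

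*Cyp26a1* (chromosome 19, 37686241 to 37689984, forward strand), the hydroxylase that retinoic acid induces in many cells, was close to absent. All 44542 cells held 25 UMIs of it, 3, 8 and 14 in libraries 1, 2 and 3. Fibroblasts outside the *Wnt16/Hhip/Col23a1* class held 13 of them, 1 in library 2 and 12 in library 3, the latter in 5 of 428 cells. The epithelium held 1 UMI, in a gland acinar cell of library 2. Library 1 had none in epithelial cells or fibroblasts, its 3 UMIs being in cells with markers of several lineages. Cells without a lineage held 6 UMIs in library 2, all in 1 cell, and 2 in library 3. The gene was too low for a test in any comparison. In library 3 the epithelium held it in 0 of 18368 cells, against those 5 of 428 fibroblasts. All fibroblasts of libraries 1 and 2 held 0 and 1 UMIs, so that a difference between classes was not seen in every library. The repeat just before its start, printed above, stands before a gene with almost no RNA in these cells.

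*Rarb* (chromosome 14, 5650540 to 6041094, forward strand), the receptor that is itself a target of retinoic acid, was highest in other epithelial, airway basal and secretory cells. Other epithelial cells, which met no epithelial gate, had 122, 128 and 130.1 CPM, airway basal cells 108, 133 and 107 CPM and secretory cells 107, 96.3 and 94.1 CPM in libraries 1, 2 and 3. Squamous basal cells had 52.0, 77.5 and 49.3 CPM and suprabasal squamous cells 62.4, 56.5 and 55.7 CPM. All airway basal values lay above all squamous values. Basal cells with both markers had 82.8, 69.6 and 67.1 CPM and overlapped squamous basal cells. Ciliated cells had 43.0, 37.3 and 24.7 CPM, so that the class with most *Aldh1a1* was among the lowest epithelial classes in *Rarb*. The neuroendocrine gate of library 1 had less, 0.927 CPM from 1 UMI in 46 cells. It had 0 UMIs in the 2 cells of library 2 and 33.7 CPM in library 3, from 1 of 6 cells. Each class in the order overlapped the next, down to endothelial cells at 17.3, 6.10 and 3.29 CPM. A UMI was counted in 60.2% ± 6.41 (SD, n = 3) of airway basal cells, 42.3% ± 8.92 of squamous basal cells and 5.78% ± 3.10 of endothelial cells, and after thinning to 5000 UMIs in 36.0% ± 1.61, 21.4% ± 4.28 and 5.45% ± 1.06. The thinned endothelial share rests on 325, 23 and 18 cells in libraries 1, 2 and 3, so that its SD says little.

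The *Rarb* difference between airway and squamous basal cells and that between fibroblasts and epithelial cells passed, as given above. Secretory and airway basal cells differed by -0.15 (0.128, adjusted p = 0.560), and suprabasal and squamous basal cells had near equal means, 58.2 and 59.6 CPM (standard error of the log2 difference 0.187). Among fibroblasts, the *Wnt16/Hhip/Col23a1* class had 60.9, 49.9 and 37.8 CPM and the others 27.3, 38.0 and 18.8 CPM. This comparison called 3.28% of 13255 genes (1.98% higher, 1.3% lower) and 0 of 6 members. For *Rarb* it gave 0.89 (0.284, adjusted p = 0.191), which passed with the replicate block (0.93, adjusted p = 0.00489, with 9.72% of all genes passing), without library 3 (0.87, adjusted p = 0.0321) and without a filter on low counts (0.88, adjusted p = 0.0302). *Aldh1a2* had -0.54 (0.268, adjusted p = 0.508), and with the block -0.53 (adjusted p = 0.0180). *Aldh1a1*, *Aldh1a3*, *Cyp26b1* and *Rarg* lay between -0.07 and 0.10, with standard errors from 0.147 to 0.406.

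*Rarg* (chromosome 15, 102143373 to 102165952, reverse strand), the receptor typical of stratified epithelia, had similar levels in most classes. Squamous basal cells had 159, 169 and 190 CPM and suprabasal squamous cells 142, 160 and 190 CPM in libraries 1, 2 and 3. Airway basal cells had 130.2, 141 and 164 CPM, *Wnt16/Hhip/Col23a1* fibroblasts 135, 137 and 156 CPM and secretory cells 110.1, 123 and 138 CPM. From squamous basal cells down to muscle satellite cells (109 to 128 CPM) each class overlapped the next, and endothelial cells lay below these at 73.8, 88.5 and 72.3 CPM. Leukocytes (34.2 to 43.5 CPM) and gland acinar cells (34.3 to 40.3 CPM) lay below endothelial cells, and ciliated cells lowest of the 15 classes at 23.0, 20.2 and 30.7 CPM. The neuroendocrine gate had 34.3 CPM in library 1 (46 cells), 0 UMIs in the 2 cells of library 2 and 20.2 CPM in library 3, from 3 UMIs in 1 of 6 cells. Airway basal cells had slightly less than squamous basal cells in 3 of 3 libraries, -0.28 (0.0949, adjusted p = 0.0815), which passed with the replicate block (-0.28, adjusted p = 0.00257). A UMI was counted in 86.9% ± 4.73 (SD, n = 3) of squamous basal cells and 27.2% ± 2.56 of ciliated cells, and after thinning in 55.8% ± 3.44 and 11.4% ± 1.25.

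**Figure D3:**
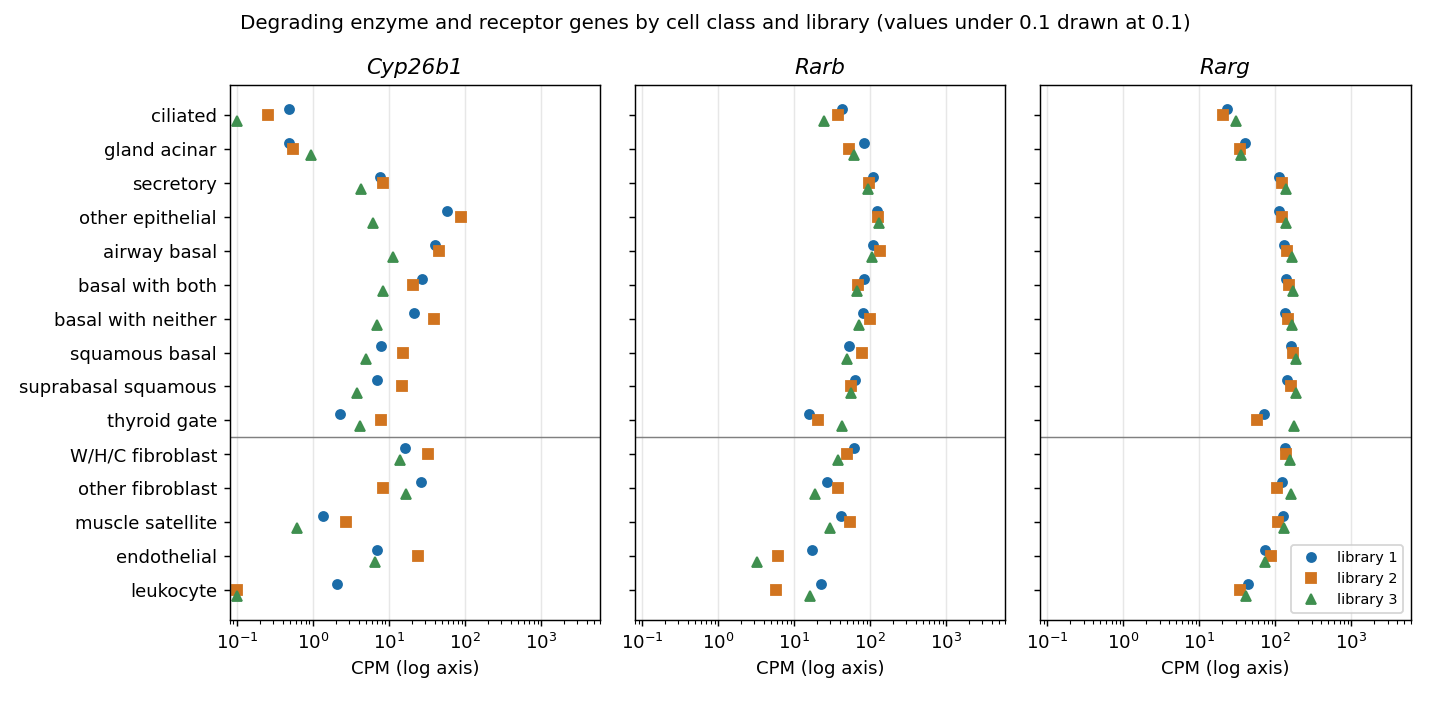
Level of *Cyp26b1*, *Rarb* and *Rarg* (CPM, log axis) in 15 cell classes, each point 1 library; values under 0.1 are drawn at 0.1 and W/H/C stands for *Wnt16/Hhip/Col23a1*. *Cyp26b1* spreads widely between libraries and is near 0 in gland acinar and ciliated cells, *Rarb* has its highest means in other epithelial and airway basal cells, and *Rarg* is lowest in ciliated cells at 20.2 to 30.7 CPM.

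*Crabp2* (chromosome 3, 87855973 to 87860683, forward strand), which carries retinoic acid to its receptors, was low throughout. Suprabasal squamous cells had 1.30, 0.352 and 4.78 CPM and the other fibroblasts 1.69, 3.17 and 2.87 CPM, and no value of the remaining classes exceeded 1.77 CPM. Squamous basal cells had 0.464, 0.360 and 1.05 CPM, so that suprabasal cells were higher in libraries 1 and 3 but not in library 2. The comparison gave 1.88 (0.745, adjusted p = 0.254), and with the replicate block 1.75 (adjusted p = 0.0109). The suprabasal values rested on 7, 2 and 60 UMIs.

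**Figure D4:**
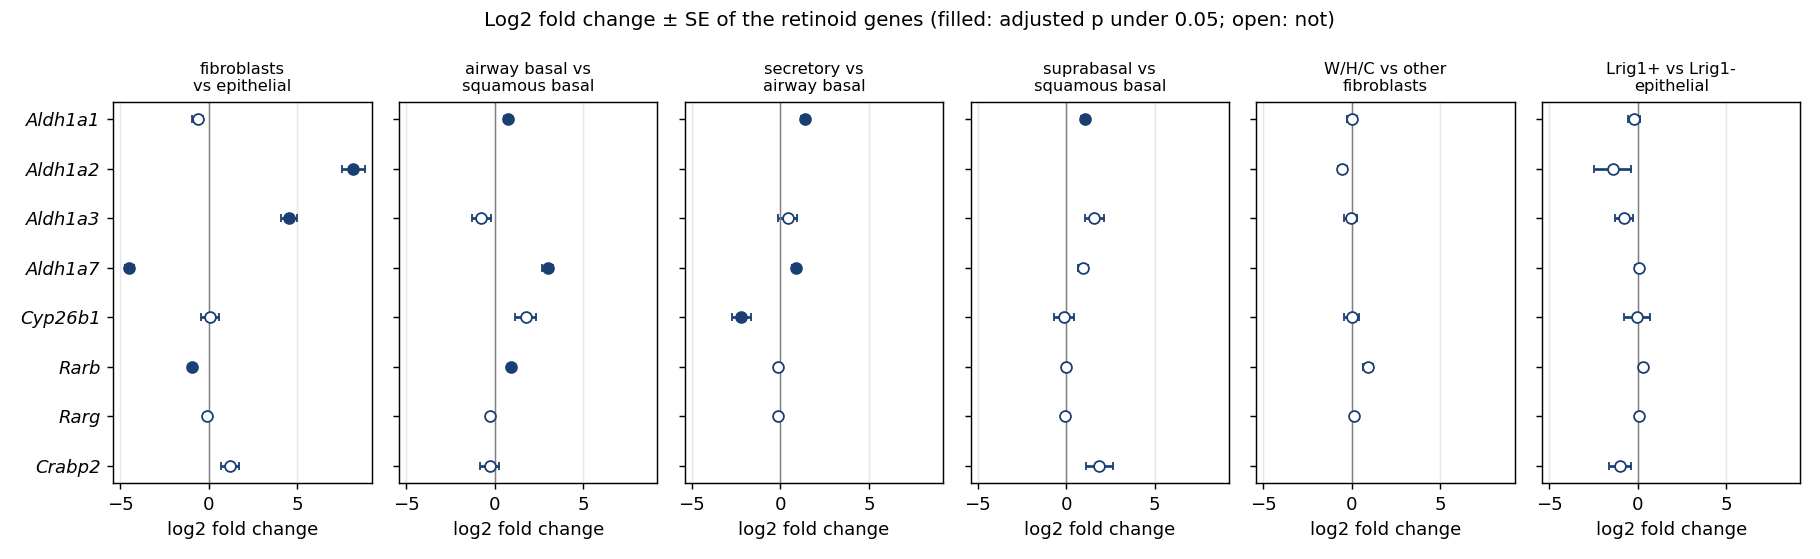
Log2 fold change with standard error (edgeR) of the 8 testable members in the 6 comparisons; filled points passed at an adjusted p under 0.05. *Aldh1a2* and *Aldh1a3* lie far to the fibroblast side (8.16 and 4.55), *Aldh1a7* far to the epithelial side (-4.49) and far to the airway side among basal cells (3.01).

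As the sort was built on *Lrig1*, epithelial cells with and without a *Lrig1* UMI were compared as well. None of 18224 genes passed in edgeR's test (0%), with 587 at an unadjusted p under 0.05, while DESeq2 called 67 genes and edgeR with the replicate block 1119 (6.14%). No member passed among 8 tested. *Rarb* stood at 89.1, 91.3 and 72.5 CPM in *Lrig1*+ and 64.8, 76.1 and 61.2 CPM in *Lrig1*- cells, a log2 difference of 0.30 (0.136), and with the block of 0.30 (0.0431, adjusted p = 0.0199). *Aldh1a3* had -0.77 (0.501), and with the block -0.80 (0.168, adjusted p = 0.0475). *Lrig1*+ cells were deeper, with medians of 16726, 19322.5 and 15114.5 against 10412.5, 13744 and 7548.5 UMIs. The share of cells with a *Rarb* UMI was 52.5% ± 4.65 (SD, n = 3) in *Lrig1*+ and 36.4% ± 5.00 in *Lrig1*- cells, and after thinning to 5000 UMIs 29.4% ± 2.11 and 23.6% ± 1.94. Cells were assigned to these groups before thinning, and the part of depth and of cell class in the remaining difference was not tested.

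A list of 52 further genes of the pathway was read in the same tests. Between fibroblasts and epithelial cells, 12 of 43 tested were higher in fibroblasts and 14 lower, close to the 27.8% and 31.2% of all genes tested, so that the counts set the list apart in neither direction. The median log2 difference was -0.00 against -0.10 over all genes tested. Higher in fibroblasts were *Rarres2*, the chemerin gene, with 413, 378 and 350 CPM against 1.02, 0.331 and 1.97 CPM (8.34, standard error 0.631), the receptor gene *Rxrg* with 10.2, 10.3 and 11.4 CPM against 26 UMIs in all epithelial cells (7.64, 0.600), and the retinoic acid binding protein gene *Crabp1* with 109.7, 129 and 126 CPM against 3.76, 2.82 and 2.54 CPM (5.28, 0.187). Without library 3, *Rarres2* had 9.18 and *Rxrg* 9.22. Lower in fibroblasts were *Dhrs9*, a retinol-oxidizing reductase gene (-4.58, 0.304), *Gprc5a*, the retinoic acid-induced receptor gene (-4.41, 0.385), and *Dhrs3*, which returns retinal to retinol (-2.57, 0.162). *Dhrs3* had 275, 314 and 281 CPM in epithelial cells and 51.8, 41.7 and 55.4 CPM in fibroblasts. By role, 3 of 10 uptake genes were higher in fibroblasts and 3 lower, and of 13 oxidoreductases 2 were higher and 5 lower, counts too small to read against the same shares.

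Between airway and squamous basal cells, 4 of the 41 listed genes tested were higher in airway cells and 8 lower, against 9.97% and 9.5% of all genes tested. *Dhrs9* fell by 2.17 on the log2 scale (0.165, adjusted p = 2.20e-04), from 147, 107 and 118 CPM in squamous to 29.4, 21.9 and 32.0 CPM in airway basal cells. The retinol and alcohol dehydrogenase gene *Adh7* had 1992, 2516 and 1769 CPM in squamous and 894, 946 and 854 CPM in airway basal cells (-1.25, 0.162, adjusted p = 0.00193), a call lost without library 1 (-1.27). The fatty acid and retinoic acid binding protein gene *Fabp5* had -1.25 (0.333, adjusted p = 0.0360), lost without library 1 or 2 (-1.16 and -1.31). *Meis2*, a homeobox gene, had 0.55 (0.127, adjusted p = 0.0212) and *Dhrs3* 0.39 (0.113, adjusted p = 0.0464), both lost without any 1 library (0.50 to 0.66 and 0.38 to 0.42). The coactivator gene *Ncoa1* had 0.41 (0.0946, adjusted p = 0.0203), lost without library 1 or 2 (0.36 and 0.50). *Rbp4*, the retinol carrier gene, was the other one that was higher (1.95), at no more than 4.38 CPM, and is named after its value was seen.

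Few listed genes passed in the other comparisons. In secretory against airway basal cells these were 2 higher and 3 lower of 38 (4.21% and 2.69% of all genes tested), among them *Adh7* (0.55, 0.136, adjusted p = 0.0495) and the transglutaminase gene *Tgm2* (-0.59, 0.103, adjusted p = 0.0139). The *Adh7* call was lost without any 1 library (0.47 to 0.66), and that of *Tgm2* without library 1 or 2 (-0.68 and -0.64). *Bco2*, higher, and *Stra6*, lower, passed as well, both under 6 CPM and named after their values were seen. In suprabasal against squamous basal cells 2 of 41 were higher (2.58% of all genes tested) and none was lower. These were *Meis2*, with 611, 533 and 574 against 296, 223 and 240.4 CPM (1.22, 0.133, adjusted p = 0.00606), lost without library 1 (1.29), and *Rbp2* (2.51, 0.456, adjusted p = 0.0251), named after its value was seen. In *Wnt16/Hhip/Col23a1* against other fibroblasts 3 of 36 were higher and 1 was lower (1.98% and 1.3% of all genes tested). *Rdh10*, the enzyme that oxidizes retinol to retinal in the embryo, had 42.6, 46.4 and 39.4 against 20.3, 10.6 and 21.7 CPM (1.14, 0.199, adjusted p = 0.0201). *Adh7* had 1.20 (0.142, adjusted p = 0.00509), *Rxrg* 2.29 (0.306, adjusted p = 0.00730) and the corepressor gene *Nrip1* -0.72 (0.133, adjusted p = 0.0267). All 4 were lost without library 1 (1.25, 1.21, 2.90 and -0.77) or library 2 (0.95, 1.16, 2.26 and -0.68). None of 43 passed between *Lrig1*+ and *Lrig1*- epithelial cells, where 0% of all genes tested passed. Counts of the list with the replicate block are not given.

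**Figure D5:**
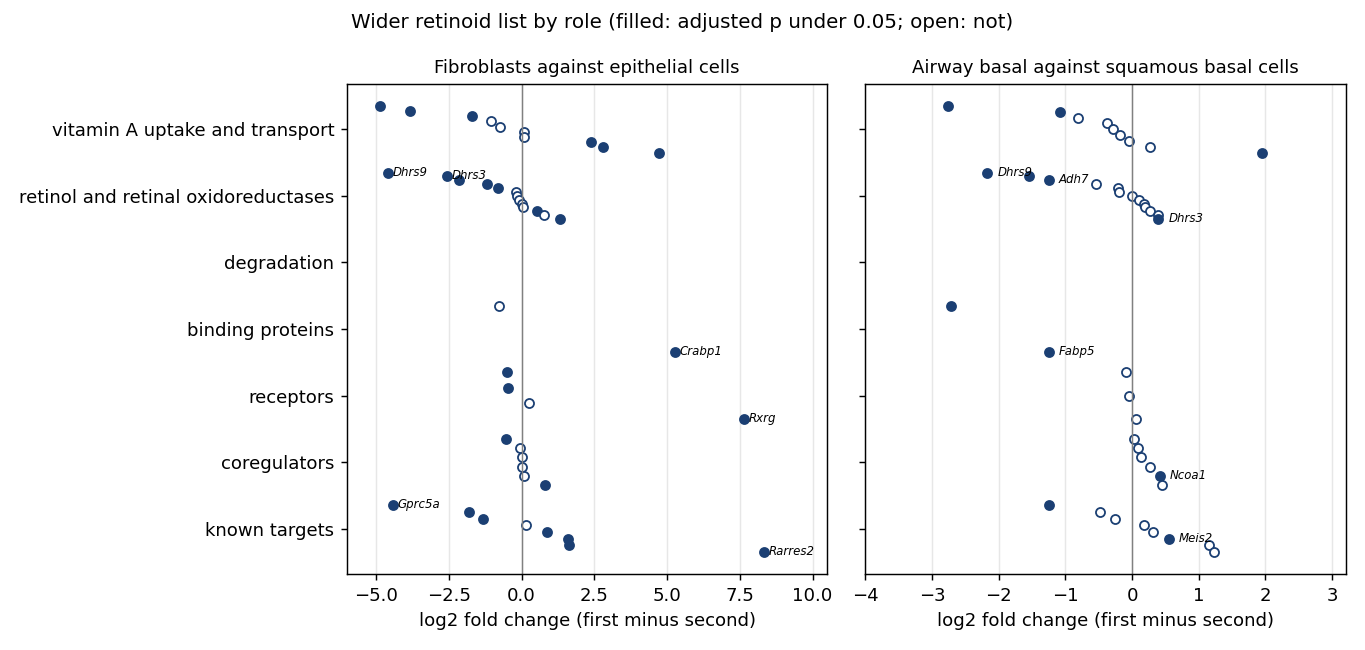
Log2 fold change of the 52 further retinoid genes, where tested, in 2 comparisons (fibroblasts against epithelial cells, airway basal against squamous basal cells), with the 3 largest changes each way at 10 CPM or more labelled and filled points for an adjusted p under 0.05. Fibroblasts against epithelial cells spread widest, from *Dhrs9* and *Gprc5a* (-4.58 and -4.41) to *Rarres2* (8.34).

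The genes whose levels ran most like a member were sought over the 45 class sums (15 classes, 3 libraries), which share libraries and depth, so that r is a description. For *Aldh1a1* these were *Cbr1* (r = 0.919), *Dnah7b* (0.898), an axonemal dynein gene, and *Zc2hc1c* (0.895). For *Aldh1a7* they were *Dcxr* (0.914), *Faah* (0.882) and *Sftpd* (0.881). For *Aldh1a2* they were *Mmp19* (0.978), *Qpct* (0.966) and *Adam33* (0.953), and for *Aldh1a3* *Cygb* (0.890), *Pappa* (0.876) and *Fgf7* (0.875). *Cyp26b1* ran most like *Sgcd* (0.823), *Papln* (0.821) and *Zfp560* (0.803). *Rarb* ran most like *Ttc38* (0.869), *Gstm2* (0.846) and *Mettl7a1* (0.846), and *Rarg* like *Ybx3* (0.936), *Hunk* (0.904) and *Ankrd10* (0.901). *Cyp26a1* and *Crabp2* stayed under 10 CPM in every class and were left out. Without the thyroid follicular class (42 sums), 11 of these 21 genes were named again, among them the first of each member, with r of 0.936 for *Cbr1*, 0.934 for *Dcxr*, 0.978 for *Mmp19*, 0.914 for *Cygb*, 0.839 for *Sgcd*, 0.909 for *Ttc38* and 0.951 for *Ybx3*. The other 10 names were not among the 3 genes most like their member without that class, and their r without it is not given.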

How the data were processed

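Single-cell RNA libraries (10x Genomics GEM-X 3′ v4) of 3 pools of sorted larynx cells were analysed. The authors deposited raw UMI counts per gene and barcode, made with Cell Ranger 8.0.1 on mm39, without normalization. Of 60530 barcodes, 49393 met the limits of 500 to 8000 genes, 1000 to 40000 UMIs and no more than 8% of UMIs from mitochondrial genes; 4851 that resembled simulated doublets were removed. Lineages needed 3 summed marker UMIs (muscle satellite 2) and epithelial subclasses 6 to 30, and cells with 0 or several lineages were left out. Minimums of epithelial subclasses had been raised once from the levels of the gate genes and of the genes that check the classes, not from the members. The split of basal cells needed only 1 UMI of *Nkx2-1* or *Tmprss11a*. The secretory gate used *Scgb3a2* and *Muc5b* only, since *Cyp2f2*, also planned, was counted in nearly all epithelial kinds. The members and lists were chosen with earlier results of these data known. Genes were named by rule: all members; the 3 genes most like each; and, of the listed genes that passed at 10 CPM or more, the 3 largest changes each way. Of the genes that this rule names, 1 is not reported here.

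Counts were summed per library and class and tested with edgeR 4.0.16 (TMM, filterByExpr, quasi-likelihood test, two-sided, Benjamini-Hochberg over all genes, threshold 0.05), without the 59 gate markers and, for the *Lrig1* comparison, *Lrig1*; the calculation was tested on simulated data. P-values of the main fit measure the spread within each class over 3 pools, as if the sums of both classes were independent. Standard errors given with edgeR were worked back from the log2 fold change and the test statistic. Sums of the same library share its mice, so the libraries pair them; deviations of paired sums from their class means correlated at 0.196 to 0.858. Alternatives were the library as a replicate block, RLE normalization, DESeq2 1.42.0, no filter, leaving out each library, gate limits doubled, no doublet removal, cells of 5000 UMIs or more and 1 fit over all classes. That fit and the measure of likeness were also run without the thyroid follicular class, a choice made after seeing the data. Coordinates are from GENCODE on GRCm39 (9 of 9 members matched). Shares of cells carry counting error, given as 95% Wilson intervals.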

Additional observations from a re-analysis of the deposited data

How the results depend on the processing

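With 3 pools the counts of genes called depended on the fit. Between fibroblasts and epithelial cells 10948 genes passed, and 7213 to 10798 without 1 library, the fewest without library 1. Between airway and squamous basal cells the count went from 3059 to 6287 with the replicate block and to 564 to 2908 without a library (564 without library 1, 2034 without library 2). For secretory against airway basal cells it went from 986 to 2921 with the block, 1486 with gates doubled, 484 in 1 fit over all classes (604 without the thyroid follicular class) and 71 to 1590 without a library (71 without library 1, 197 without library 2). For suprabasal against squamous basal cells it went from 585 to 3101 with the block, 1107 with DESeq2, 333 in 1 fit over all classes (447 without the thyroid follicular class) and 1 to 369 without a library (1 without library 1, 141 without library 3). For the fibroblast classes it went from 435 to 1289 with the block, 670 with DESeq2, 829 without a filter and 3 to 748 without a library (3 without library 1, 73 without library 2, 748 without library 3). For *Lrig1*+ against *Lrig1*- cells it went from 0 to 1119 with the block and 67 with DESeq2. The cause was not tested.

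Of 457 log2 differences of the members under an alternative, 397 kept their direction and side of the threshold, 20 passed in addition, 19 no longer passed and 21, none of them past the threshold, changed sign. Of 1008 shares of cells under an alternative, thinning included, 397 (39.38%) moved by more than the spread between libraries. The replicate block changed no call of a member other than those printed beside the results. Those that changed sign were *Cyp26b1* between fibroblasts and epithelial cells without library 3 (from -0.0898 to 0.44 without a library); *Aldh1a3* (-0.12) and *Rarb* (0.037) between secretory and airway basal cells with gates doubled; between suprabasal and squamous basal cells *Cyp26b1* with gates doubled (0.15) and *Rarb* without a filter (-0.023), without library 1 or 3 (from -0.15 to 0.27 without a library), with gates doubled (-0.13), without doublet removal (-0.018) and in 1 fit over all classes (-0.0098, and -0.029 without the thyroid follicular class). Between the fibroblast classes they were *Aldh1a1* with RLE (-0.0039), DESeq2 (-0.0097), gates doubled (-0.052) and without library 1 (from -0.098 to 0.089 without a library), *Aldh1a3* without library 1 (from -0.24 to 0.26), and *Cyp26b1* with DESeq2 (0.12), in cells of 5000 UMIs or more (0.055) and without library 1 or 3 (from -0.57 to 0.66). *Cyp26b1* between *Lrig1*+ and *Lrig1*- cells changed sign without library 2 (from -0.14 to 0.066 without a library). DESeq2 and doubled gates also called *Aldh1a3* between suprabasal and squamous basal cells (1.59 and 3.08), DESeq2 *Aldh1a7* (0.95) and doubled gates *Crabp2* (3.71). Without a filter on low counts the median of all genes shifted to -0.33 in the first comparison and -0.12 in suprabasal against squamous basal cells. Depth limits *Cyp26a1*, *Crabp2* and leukocyte and endothelial values of libraries 2 and 3, which rest on 30 to 43 cells, and on 18 to 23 after thinning to 5000 UMIs.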
